A study of Mus musculus with 2 samples.

Results

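The genes of pre-T cell receptor (pre-TCR) and T cell receptor (TCR) signalling were read in DN3 thymocytes labelled Miz-1 knockout and wild type. They were chosen by name as 40 genes of the pathway, and every probe set annotated to any of them was read. Of these genes 39 had a named probe set, with 101 probe sets in all, among 18193 genes so named on the array. Lck was not analysed here. The study has 2 oligonucleotide arrays. The first was hybridised with RNA of Miz-1 knockout cells, from mice described as Miz1-delta-POZ, whose Miz-1 (gene Zbtb17, a zinc finger transcription factor) lacks the POZ domain through which it binds partners. The second was hybridised with RNA of wild-type cells. Both groups had the C57BL/6 background, and the cells were thymocytes negative for lineage markers and CD44 and positive for CD25. The sources used here give neither the animals' age and sex nor their number behind each RNA, nor the driver and timing of the deletion.

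In DN3 thymocytes a rearranged TCR beta chain pairs with the invariant pre-T alpha chain and the CD3 chains to form the pre-TCR. Src family kinases then phosphorylate the CD3 and zeta tails, Syk family kinases dock there, and adaptors link them to phospholipase C, calcium, Ras and NF-kB. Phosphatases and ubiquitin ligases restrain the same steps. Cells that signal through the pre-TCR pass beta-selection, divide and move on to the next stage. The comparison gives RNA levels of genes of this step in knockout and wild-type cells, and signalling itself was not measured.

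There was 1 array per genotype, so the values carry no error between animals, and nothing was tested. Signals are intensities on a linear scale in arbitrary units, and a pair of signals gives the knockout first. The floor was 394, the median of all values on both arrays, and lower values were set to it. Ratios are log2 of the knockout signal over the wild-type signal. A gene was read by its brightest probe set, by mean signal, and counted as measured where this mean exceeded the floor. A difference is described as 2-fold by its size alone. Between measured probe sets of the same gene the SD of the log2 ratios, as a root mean square, was 0.57 over 4514 genes and 0.54 over the 26 members with at least 2 measured probe sets. These probe sets share both RNA samples and are not replicates, and the number of arrays limits the precision. In RNA of sorted cells, fewer cells of a type and less RNA per cell cannot be told apart.

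For Zbtb17 the brighter probe set read 1361 (knockout) and 3042 (wild type), and the other 610 and 47.6, with a mean below the floor. Whether either lies in the deleted part was not analysed here, and Zbtb17 is no check of the labels. Xist read 55300 in knockout and 423 in wild-type RNA, and the Y-linked Kdm5d and Eif2s3y read 36.7 against 1782 and 46.8 against 1433. Sex and genotype therefore cannot be told apart for any value given here. All 11 DN3 markers with a named probe set, among them the members Ptcra, Cd3e, Cd3g and Lat, were measured. Their raw signals summed to 290091 and 196740, and 10 of the 11 had ratios above 0. Their median log2 ratio was 0.62, which is that of the member Ptcra. Because this list holds members, its likeness to them is partly fixed in advance. Dtx1 was 5.09-fold and Il2ra 4.61-fold higher, Notch1 1.97-fold, and Rag1 read 34741 and 45865, while Cd4 read 112 and 79.3. All sums of markers here are of the values as deposited, with no floor. Of 9 myeloid markers 3 were measured, with a summed signal over all 9 of 5806 (knockout) and 3031 (wild type). Lyz2 was 3.59-fold and Csf1r 2.28-fold higher, while Adgre1 read 482 and 498, a log2 ratio of -0.05. Other measured probe sets of Csf1r gave log2 ratios of 0.05 and 1.37, the latter with its wild-type value set to the floor. Itgam, S100a8 and S100a9 were below the floor on both arrays. The 7 mature T cell markers summed to 18453 and 11635, and the brightest of them was Il7r (9300 and 5065, 1.84-fold higher). Klf2 was at least 2.67-fold and Ctla4 2.13-fold higher, Cd5 1.52-fold and Cd6 1.73-fold lower, and S1pr1 was below the floor on both arrays. The 7 B cell markers summed to 16161 and 31421, mostly through Ighm (11340 and 28208). Cd22 was at least 2.02-fold lower, while Cd79b was 1.86-fold, Cd79a at least 1.71-fold and Ms4a1 1.45-fold higher, and Pax5 lay below the floor on both arrays. The 7 NK and innate lymphoid markers summed to 21539 and 23382, mostly through Gzma (13881 and 19641). Nkg7 was 2.40-fold and Prf1 1.81-fold higher, Klrd1 was at least 1.73-fold lower, and Eomes lay below the floor on both arrays. The 5 gamma-delta T cell markers summed to 17808 and 13240. Maf, the dimmest of them (1120 and 459), was 2.44-fold, Cd163l1 1.59-fold and Il17rb 1.33-fold higher. Blk had a log2 ratio of 0.21 and Sox13 one of -0.14. The 6 double positive markers summed to 19997 and 26707, with Ccr9 4.32-fold lower and Aqp11 1.96-fold higher. The median log2 ratio of the double positive list was 0.02. The 3 erythroid markers summed to 881 and 853. The part of such cells in the results below was not tested.

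Of the 40 genes 38 were measured, and they lay mostly on the higher side in the knockout. The receptor chain genes Cd3g and Cd3d, the kinase gene Prkcq and the ubiquitin ligase gene Cblb were at least 2-fold higher, and no member was 2-fold lower. These are 4 of 38 measured members, or 10.5%, against 7.23% of all 10770 measured genes that were 2-fold higher and 5.65% that were 2-fold lower, so the share past 2-fold was near that of all genes. At 1.5-fold, 15 members were higher and 3 lower, where 19.2% and 17.9% of all measured genes were. Of the 38 log2 ratios 25 were above 0, as were 50% of those of all measured genes, with a median of 0.40 for the members and a range from -0.78 (Ppp3cb) to 1.77 (Prkcq). The median over all measured genes was 0.00. Members were bright on this array, and 23 of the 38 fell in the brightest 25% of measured genes by mean signal. In that class as a whole 3.97% of genes were 2-fold higher, and the median log2 ratio was -0.18.

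**Figure D1:**
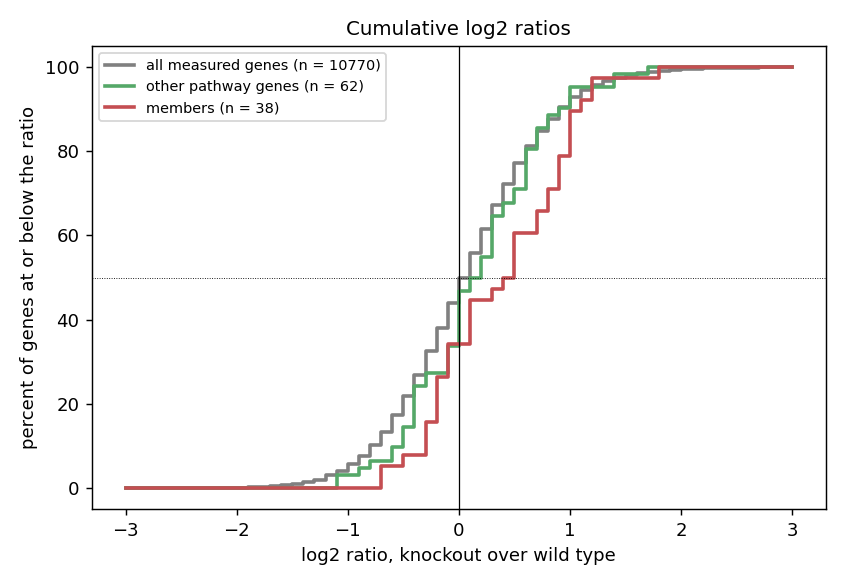
Cumulative percent of genes (vertical axis) at or below each log2 ratio of knockout over wild type (horizontal axis) for the 38 measured members, 62 other measured pathway genes and all 10770 measured genes, drawn in steps of 0.1. The members' curve lies to the right of the others through its middle, crossing 50% near their median of 0.40, and it meets them at its upper end.

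By role, the medians are a description only. The median log2 ratio was 0.96 for the 6 measured genes of kinases and CD45, 0.62 for 5 receptor chains, 0.59 for 6 negative regulators and 0.54 for 6 genes of the calcium branch. It was -0.05 for 10 adaptors and -0.29 for 5 exchange factors. The last pair turned with the probe set read. With the mean of all measured probe sets, adaptors had a median of 0.35 and exchange factors one of 0.29, and without probe sets of shared sequence the values were 0.13 and 0.29. With the mean of probe sets the calcium branch fell to 0.12. Without probe sets of shared sequence the negative regulators had a median of 0.22. The medians of these roles thus rested on which probe set stood for each gene. That of the kinases and CD45 lay between 0.79 and 0.98 over the 8 other settings with the 2-fold rule. That of the receptor chains lay between 0.62 and 0.82, but its middle gene, Ptcra, has a single probe set, as do 4 of the 5 chains, so the choice of probe set could hardly move it.

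**Figure D2:**
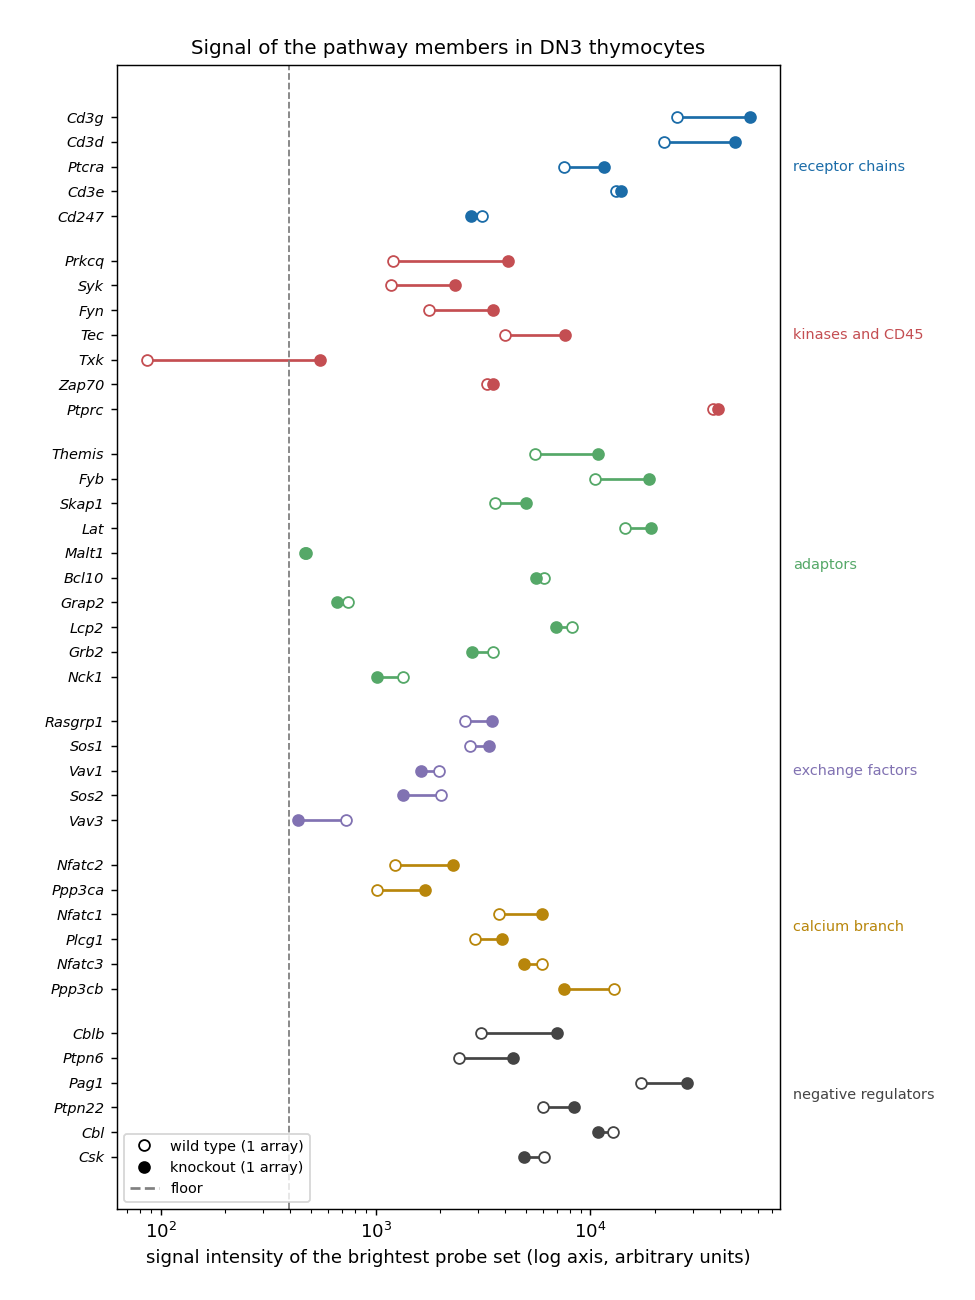
Signal intensity (log axis, arbitrary units) of the brightest probe set of each of 39 members on the wild-type array (open) and the knockout array (filled), grouped by role, with the floor as a dashed line. Cd3g, Cd3d, Prkcq and Cblb have the widest gaps among measured members, and Txk is the gene whose mean lies under the floor.

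The start regions of 6 genes are shown, because Cd3g and Cd3d lie next to each other and read alike while Cd3e, in the same cluster, did not, and because Ptcra defines the pre-TCR and Prkcq and Cblb were the other members past 2-fold. Each window runs from 250 bases before to 50 after the annotated start site, from RefSeq on GRCm38.p6, 5′ to 3′ on the gene's own strand. The array annotation names no build, and these windows serve only to show the sequence. Capitals mark E-boxes, the letters CANNTG, which read the same on both strands and are the class of site that E proteins, regulators of early T cell genes, bind.
Cd3g (chr9:44980382-44980681, minus strand): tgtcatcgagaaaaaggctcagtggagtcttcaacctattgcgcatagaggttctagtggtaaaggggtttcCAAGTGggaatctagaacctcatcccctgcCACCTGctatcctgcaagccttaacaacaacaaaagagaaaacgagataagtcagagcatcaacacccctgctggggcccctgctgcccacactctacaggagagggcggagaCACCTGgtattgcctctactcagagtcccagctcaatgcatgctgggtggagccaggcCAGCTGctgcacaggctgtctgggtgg
Cd3d (chr9:44981536-44981835, plus strand): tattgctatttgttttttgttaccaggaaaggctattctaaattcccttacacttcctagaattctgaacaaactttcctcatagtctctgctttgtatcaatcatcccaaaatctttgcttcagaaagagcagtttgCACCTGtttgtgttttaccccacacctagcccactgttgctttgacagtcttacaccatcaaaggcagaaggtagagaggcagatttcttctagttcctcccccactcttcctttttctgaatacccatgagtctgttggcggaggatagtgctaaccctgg
Cd3e (chr9:45009562-45009861, minus strand): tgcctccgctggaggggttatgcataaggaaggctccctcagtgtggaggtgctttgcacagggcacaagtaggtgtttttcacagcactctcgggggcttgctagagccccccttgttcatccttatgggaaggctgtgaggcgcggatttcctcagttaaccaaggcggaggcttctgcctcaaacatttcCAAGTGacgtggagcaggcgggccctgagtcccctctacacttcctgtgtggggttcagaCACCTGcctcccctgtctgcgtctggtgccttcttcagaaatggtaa
Ptcra (chr17:46763663-46763962, minus strand): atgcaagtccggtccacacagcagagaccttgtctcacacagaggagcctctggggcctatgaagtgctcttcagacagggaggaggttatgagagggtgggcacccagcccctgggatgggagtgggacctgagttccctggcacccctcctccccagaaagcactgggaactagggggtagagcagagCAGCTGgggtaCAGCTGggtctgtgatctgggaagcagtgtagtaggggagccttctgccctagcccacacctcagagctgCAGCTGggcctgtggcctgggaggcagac
Prkcq (chr2:11172132-11172431, plus strand): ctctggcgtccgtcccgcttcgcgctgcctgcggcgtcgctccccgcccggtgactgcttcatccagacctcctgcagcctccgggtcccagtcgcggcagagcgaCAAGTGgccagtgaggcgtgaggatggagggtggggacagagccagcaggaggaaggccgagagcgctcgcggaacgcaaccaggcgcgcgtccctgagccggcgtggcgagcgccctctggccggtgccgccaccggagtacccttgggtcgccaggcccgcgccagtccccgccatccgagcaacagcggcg
Cblb (chr16:52031299-52031598, plus strand): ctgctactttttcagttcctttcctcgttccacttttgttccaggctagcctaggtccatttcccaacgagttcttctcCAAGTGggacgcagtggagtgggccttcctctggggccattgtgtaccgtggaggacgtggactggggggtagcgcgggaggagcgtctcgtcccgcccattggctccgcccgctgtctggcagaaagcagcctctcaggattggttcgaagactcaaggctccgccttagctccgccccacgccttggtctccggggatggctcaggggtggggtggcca

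The Cd3g and Cd3d start sites lie 1355 bases apart and point away from each other, and that of Cd3e lies 27825 bases beyond Cd3d on the side away from Cd3g. An E-box stood in each of the 6 windows, 4 in Cd3g, 3 in Ptcra, 2 in Cd3e and 1 each in Cd3d, Prkcq and Cblb. Of all 32851 promoter windows of this length in the table, which holds several for some genes, 72.3% hold at least 1, and 6.49% hold 4 or more. Of 48 windows of 34 matched members, Lck left out, 37 held 1, or 77.1%. The letters GGAAG, the Ets core GGAA with 1 more base, were searched on both strands. They were found in 5 of the 6 windows and not in that of Cd3g, which does hold GGAA. Of all windows 71.4% hold GGAAG, and the core GGAA alone was not counted. The Runx letters TGTGGT (16.8% of all windows) and TATAAA (13.6%), on both strands, were in none of the 6. No match overlapped a match of another motif. The Cd3d window had a GC content of 42.3% and 1 CpG, whereas that of Prkcq had 73.0% and 37. These matches describe the letters alone.

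**Figure D3:**
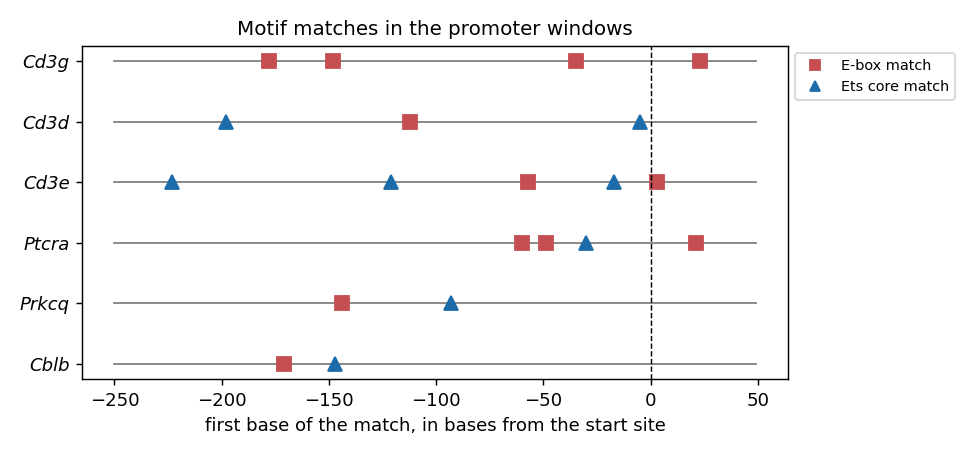
Matches of the E-box (squares) and of the letters GGAAG, labelled Ets core (triangles), in the windows of 6 genes. Each is placed by the first base of the match in bases from the annotated start site, with the start site at the dashed line. The Cd3g window holds 4 E-boxes and no GGAAG, and the Cd3d window 1 E-box and 2 matches of GGAAG.

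Among the receptor chains, Cd3g and Cd3d encode CD3 gamma and delta, chains that pair with CD3 epsilon and each carry an activation motif in their tail. Cd3g read 55163 on the knockout array and 25398 on the wild-type array, 2.17-fold higher. Cd3d read 46854 and 21914, 2.14-fold higher, so the neighbouring genes differed by nearly the same ratio. Cd3e, the partner that both pairs share, read 13939 and 13146, a log2 ratio of 0.08. Each of these 3 genes was read by a single probe set, so none has a second reading. Ptcra, the pre-T alpha chain that stands in for the TCR alpha chain, read 11518 and 7513, 1.53-fold higher, also by a single probe set. Cd247, the zeta chain with several activation motifs, gave no common answer. Its brightest probe set read 2768 and 3131 and the next 2730 and 2629, with log2 ratios of -0.18 and 0.05, while another read 1092 and 418, a log2 ratio of 1.38. The fourth lay under the floor by its mean.

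All 6 measured genes of the kinases and CD45 had positive log2 ratios. Prkcq encodes protein kinase C theta, which carries the signal towards NF-kB, and had the highest ratio of any member. It read 4114 against 1208, 3.40-fold higher, by a single probe set, which is of the shared-sequence kind. Fyn, a Src family kinase that acts beside Lck, read 3500 and 1774, and its log2 ratios of 0.98 and 0.72 by its probe sets lay close together. Syk and Zap70 are sister kinases that dock on the phosphorylated chains. Syk read 2338 and 1182, a log2 ratio of 0.98, and its second measured probe set gave 0.38. Zap70 read 3500 and 3294, a log2 ratio of 0.09, with the other probe sets at 0.29 and -0.27. Syk thus lay just under 2-fold higher by its brightest probe set while the Zap70 readings stood on both sides of 0. B cells and myeloid cells also express Syk. Tec, a kinase that acts on phospholipase C, read 7615 and 3997, 1.91-fold higher. Its relative Txk read 549 and 86.4, with a mean under the floor, so that only its knockout value was above it. Ptprc encodes CD45, the phosphatase that keeps Src family kinases ready. Its bright probe set read 39113 and 37185, a log2 ratio of 0.07, and a second, dimmer set read 2139 and 811, 2.64-fold higher.

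The adaptors lay on both sides: none of the 10 adaptor genes passed 2-fold, and 5 ratios were above 0 and 5 below. Themis, which tunes TCR signal strength in thymocytes, came nearest. It read 10876 against 5542, 1.96-fold higher, and its 4 probe sets were all above 0, from 0.40 to 0.97. Fyb and Skap1 encode partner adaptors that link the receptor to integrins. Fyb read 18685 and 10466, a log2 ratio of 0.84, but 0.13 by its second probe set. Skap1 read 4995 and 3583, and its 3 log2 ratios lay between 0.48 and 0.92, so all of its readings were on the higher side. Lat, the membrane scaffold on which the complex assembles, read 19109 and 14542, a log2 ratio of 0.39. Lcp2, its cytosolic partner adaptor, read 6896 and 8233, a log2 ratio of -0.26, against 0.85 by the dimmer probe set. Grb2, which brings Sos proteins to Lat, was the only member with several measured probe sets that all lay below 0. Its probe sets read 2802 against 3515 and 1970 against 2445, log2 ratios of -0.33 and -0.31. Grap2, a relative of Grb2, had a log2 ratio of -0.18, and Nck1, which links to the actin skeleton, one of -0.40 with a range from -0.79 to 0.07. Bcl10 and Malt1 form the complex that relays the signal to NF-kB. Bcl10 had a log2 ratio of -0.12 by its brightest probe set, and the other 3 gave 0.26 to 0.38. Malt1 read 475 and 468, close to the floor, and its second measured probe set read 720 and 202, at least 1.83-fold higher.

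Exchange factors load Ras or Rac with GTP, and none of their 5 genes passed 2-fold by its brightest probe set. Rasgrp1, the main Ras activator of thymocytes, read 3474 and 2603, and its 3 measured probe sets lay between 0.42 and 0.56. Its readings were thus among the tightest of the members. Sos1 read 3355 and 2741, a log2 ratio of 0.29, by the only measured of its 5 probe sets. Its relative Sos2 read 1335 and 2020, a log2 ratio of -0.60. The Vav genes, which act on Rac, had no settled direction. Vav1 had log2 ratios of -0.29 and 0.92. Vav3 had the widest gap of all members, with a log2 ratio of -0.75 (435 and 730) by its brightest probe set and of 1.04 (813 and 272, at least 2.06-fold higher) by another.

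In the calcium branch, Plcg1 encodes the phospholipase that releases the calcium-mobilising messenger, calcineurin is the calcium-dependent phosphatase, and NFAT factors are its substrates. Plcg1 read 3878 and 2908, a log2 ratio of 0.42, against -0.20 by its dimmer probe set. The calcineurin catalytic genes were on opposite sides. Ppp3ca read 1694 and 1017, a ratio of 0.74, with probe sets spread from -0.02 to 0.74. Ppp3cb read 7506 and 12846, a log2 ratio of -0.78 and the lowest of all members, but a probe set nearly as bright read 7657 and 6469, a ratio of 0.24. The direction of Ppp3cb is therefore not settled on these arrays. Nfatc2 read 2282 and 1234, a log2 ratio of 0.89, and 2 further measured probe sets gave 1.01 and 0.07. Nfatc1 read 5940 and 3750, a log2 ratio of 0.66, with its 5 probe sets between -0.46 and 0.66. Nfatc3 had log2 ratios of -0.28 and 0.24.

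Among the negative regulators, Cblb encodes a ubiquitin ligase that limits TCR signalling, and it was the only member whose several probe sets were all at least 2-fold higher. Its 3 probe sets read 6967 against 3088, 6564 against 1890 and 2075 against 832, log2 ratios of 1.17, 1.80 and 1.32. Of all 4514 genes with at least 2 measured probe sets, 1.31% were 2-fold higher by every one. Its relative Cbl read 10849 and 12793, a log2 ratio of -0.24, whereas its dimmer probe sets gave 0.54 and 0.67. Pag1 and Csk work together, Pag1 anchoring the kinase Csk that shuts off Src family kinases. Pag1 read 28057 and 17208, a log2 ratio of 0.71, with the others at -0.15 and -0.67, and Csk read 4911 and 6080, a ratio of -0.31. The phosphatase genes Ptpn22 and Ptpn6 read 8360 against 6029 and 4378 against 2451, log2 ratios of 0.47 and 0.84. The second Ptpn6 probe set gave -0.03, and other blood cells express Ptpn6 too.

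**Figure D4:**
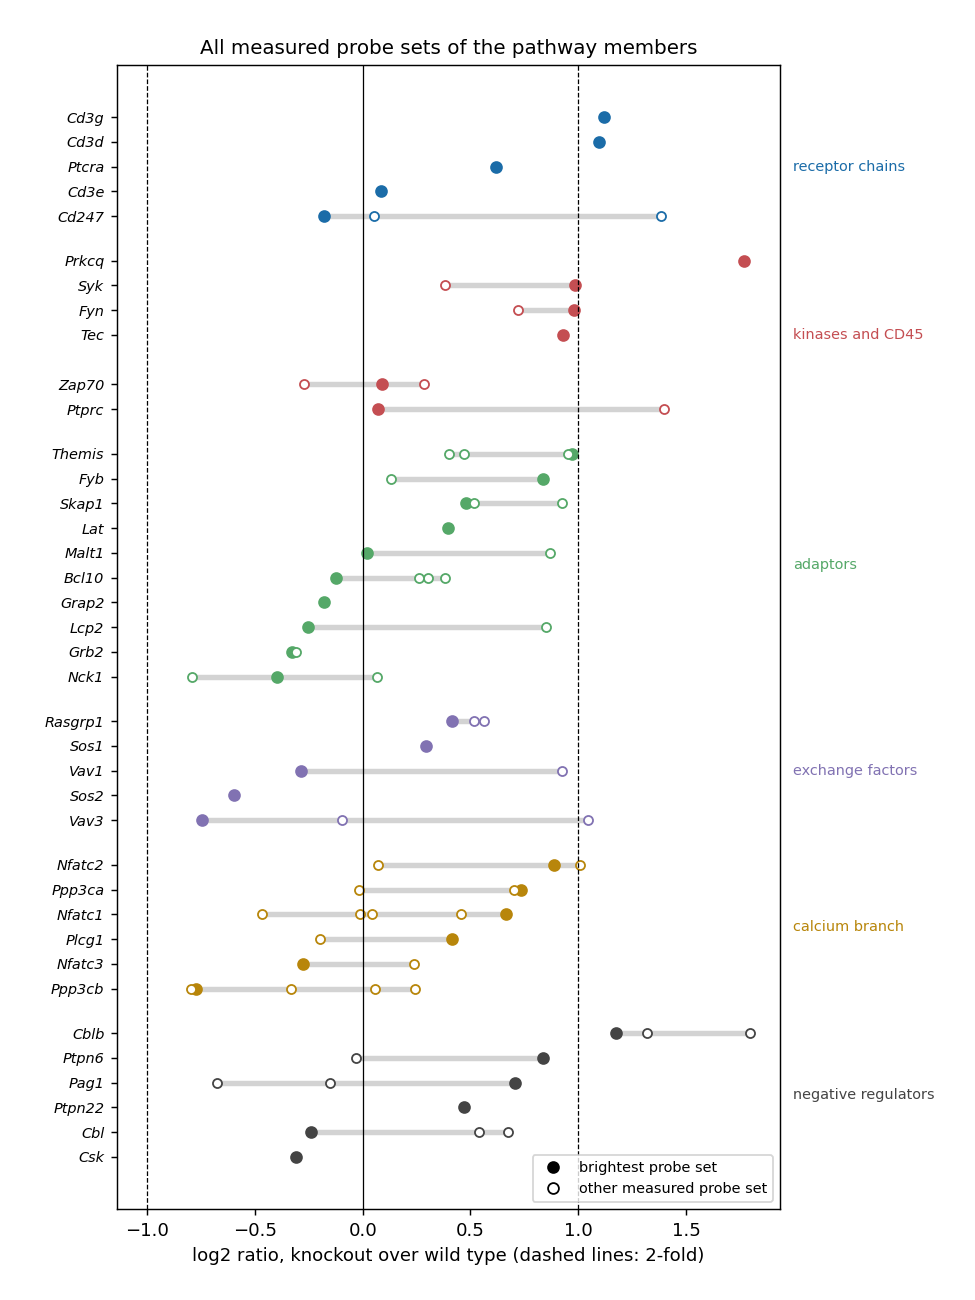
Log2 ratio of knockout over wild type (horizontal axis) for the 85 measured probe sets of 38 members, grouped by role, with the brightest probe set of each gene filled, grey bars from the lowest to the highest, and dashed lines at 2-fold. The 3 Cblb probe sets all lie past 2-fold, while those of Vav3, Cd247 and Pag1 span the widest ranges.

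Over all of their measured probe sets, the members gave 59 log2 ratios above 0 and 26 below. Of these 85 probe sets 10 were at least 2-fold higher, or 11.8%, and none was 2-fold lower, against 7.76% and 5.68% of all 18180 named measured probe sets. Besides the 6 of Cd3g, Cd3d, Prkcq and Cblb, they were single probe sets of Cd247, Ptprc, Nfatc2 and Vav3, whose brightest readings did not pass 2-fold. Of the 26 members with several measured probe sets, 10 were above 0 by all of them, 1 was below 0 by all, and 15 had readings on both sides. Among all genes with several measured probe sets, 24.7% were above 0 by all, 23.2% below 0 by all, and 52.1% on both sides. The 10 members were Cblb, Fyn, Syk, Themis, Skap1, Rasgrp1, Nfatc2, Malt1, Ptprc and Fyb. The lowest probe set gave only 0.02 for Malt1, 0.07 for Ptprc and for Nfatc2, and 0.13 for Fyb. The median gap between the highest and the lowest probe set of a member was 0.80 on the log2 scale.

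Other genes of the pathway, 75 by name, were read in the same way. Of these 64 had a named probe set and 62 were measured. By the same size rule 3 of them were higher and 2 lower, or 4.84% and 3.23%, below the 7.23% and 5.65% of all measured genes, and their median log2 ratio was 0.08. The 3 higher genes all belong to the calcium branch. Stim1, the calcium sensor of the endoplasmic reticulum, read 4668 against 1849, 2.52-fold higher, by a probe set of the shared-sequence kind. A second probe set, not of that kind, was 1.96-fold higher, so without shared-sequence sets Stim1 did not pass 2-fold. Orai2, a calcium channel subunit that STIM proteins open, read 1522 and 469, 3.25-fold higher, and 2.48-fold by its second probe set. Rcan3, a calcineurin regulator, read 1069 and 431, 2.48-fold higher, with the wild-type value near the floor. With the floor at the 60th percentile its log2 ratio was 0.96. Orai1 and Rcan1 were named after their values were seen. Rcan1 read 343 and 712 by its only measured probe set, a log2 ratio of -0.85 with the knockout value set to the floor. With no floor the Rcan1 ratio was -1.06. Orai1 had no settled direction, with log2 ratios of -0.55 by its brightest probe set and 1.32 (985 and 228, the lower set to the floor) by another. The 13 measured other genes of the calcium branch had a median of 0.52, which was not recomputed with other probe sets.

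The 2 lower genes were Sh2d2a and Rac1. Sh2d2a, an adaptor that binds Lck, read 1866 and 4171, 2.24-fold lower by a single probe set. Rac1, a small GTPase that Vav proteins activate, read 13008 and 27912, 2.15-fold lower, but its second probe set, nearly as bright, gave a log2 ratio of -0.29. Under quantile and loess normalization that second probe set became the brighter and the ratio was 0.041 and 0.046, so Rac1 is not settled. The 14 measured other negative regulators had a median log2 ratio of -0.37, on the other side from the 0.59 of the 6 members of that role. The difference between these medians was not tested. Without probe sets of shared sequence the median of the 6 members was 0.22, and that of the other genes was not recomputed. Among those other genes, Ubash3a, Ptpn12, Ptpn2 and Itch had measured probe sets on both sides of 0.

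**Figure D5:**
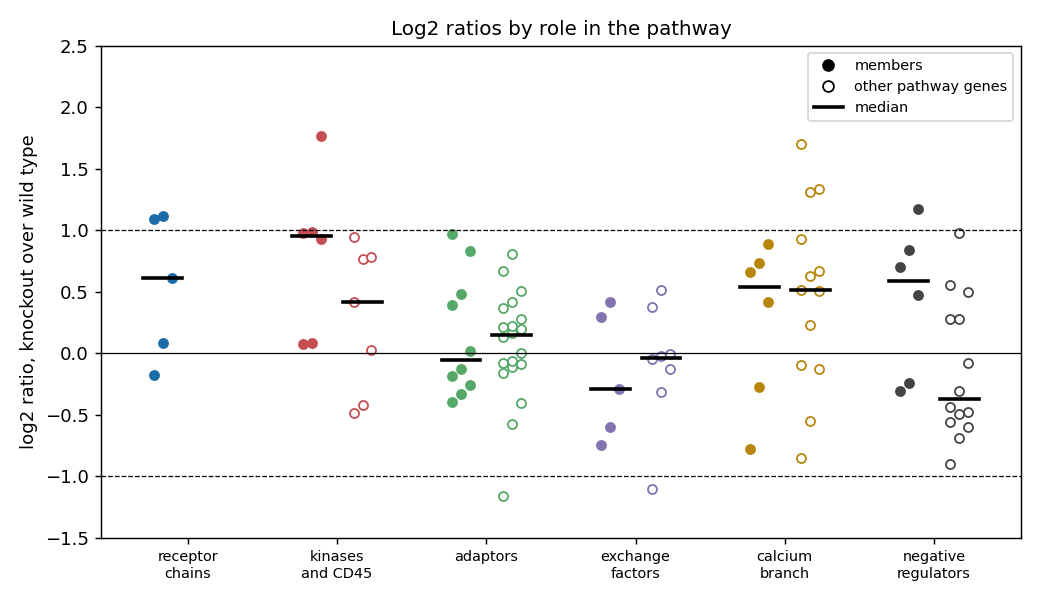
Log2 ratio of knockout over wild type (vertical axis) of each measured member (filled) and each other measured pathway gene (open) by role, with medians as bars and 2-fold as dashed lines. The kinases have the highest median among members, 0.96, and the 3 open points past 2-fold in the calcium branch are Orai2, Stim1 and Rcan3.

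Scaling of the arrays changed how many members passed 2-fold. Under quantile and under loess normalization 8 members were 2-fold higher and none 2-fold lower, where 6.22% and 6.32% of all measured genes were higher. The 4 added in both were Themis, Fyb, Pag1 and Tec, with folds of 2.20, 2.14, 2.09 and 2.03 under quantile normalization. In the deposited values the same genes were 1.96-fold, 1.79-fold, 1.63-fold and 1.91-fold higher, just inside the limit or somewhat further from it. Cd3g, Cd3d and Cblb passed 2-fold in every setting that kept the 2-fold rule. Without probe sets of shared sequence Prkcq was not read, and Ptprc and Vav3 passed 2-fold by dimmer probe sets. Prkcq passed wherever its probe set was kept. In the deposited values it was the only member past 3-fold, where 1.45% of all measured genes were at least 3-fold higher.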

How the data were processed

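Total RNA of sorted thymocytes, prepared with TRIzol, was copied into biotin-labelled RNA by in vitro transcription, per the labels' protocols. What the authors deposited is a signal intensity for each probe set, and GCOS 1.4 is named in the submitters' processing notes. Both arrays have a mean of 1000 after trimming 2% at each end, so the authors had scaled them to a common target before deposit. Detection calls and scanner files were not used here.

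Of 45101 probe sets 64 control ones were left out. Of the rest, 34945 had 1 gene symbol, 34741 of them updated by identifier from RefSeq (GRCm38.p6), 932 had several and 9160 were unnamed. Log2 ratios, the floor and the 2-fold rule are given with the results. The count of members was set beside that of all measured genes, and no chance test was made. Named were all members, though not every probe set of each, other pathway genes past 2-fold, Zbtb17, the sex-linked genes and markers of other cells, except where said. Members, lists and rules were chosen with earlier results of these data known. The 10 alternatives were median centring, quantile normalization, loess with a span of 0.3, a floor at the lower quartile, one at the 60th percentile, no floor, the mean of probe sets, leaving out probe sets of shared sequence (identifiers ending in x_at, s_at or a_at), and 1.5-fold and 3-fold rules. The calculation was tested on simulated data, with changes larger than 2-fold planted in bright genes only. That test does not cover differences near 2-fold or signals near the floor. Python 3.11.15, numpy 2.4.6, pandas 2.3.3 and statsmodels 0.14.6 were used.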

Additional observations from a re-analysis of the deposited data

How the results depend on the processing

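With 1 array per genotype no replicate could be left out. No paired analysis was possible because each genotype has a single array. The spread between probe sets of a gene, an SD of 0.57 on the log2 scale, was the yardstick for a gene, and for a median it was divided by the root of the number of genes. This is a rule of size only, which treats genes as independent and holds no error between animals. The median log2 ratio of all measured members stayed between 0.40 and 0.48 over the 8 settings with the 2-fold rule, and the medians of the kinases and receptor chains moved by less than their yardstick, the latter with little room to move under the probe set alternatives. The adaptor median turned to 0.35 with the mean of probe sets and to 0.13 without probe sets of shared sequence, and the exchange factor median to 0.29 in both. In these settings other probe sets stand for a gene, by construction. The calcium branch median was 0.12 with the mean of probe sets, and that of the negative regulators 0.22 without probe sets of shared sequence. The count of members 2-fold higher was 8 under quantile and 8 under loess normalization, where 6.22% and 6.32% of all measured genes were higher. It was 15 and 1 under the 1.5-fold and 3-fold rules, with 19.2% and 1.45% of all. The count of those lower was 3 at 1.5-fold, with 17.9% of all. Among other pathway genes the higher count was 6 with the floor at the lower quartile, where 16.7% of all measured genes were higher. With no floor it was 5 (9.89% of all), at 1.5-fold 12 (19.2%) and at 3-fold 1 (1.45%). The lower count was 1 with the mean of probe sets (4.40% of all), 6 at 1.5-fold (17.9%) and 0 at 3-fold (0.743%). Rac1 turned to 0.041 and 0.046 under quantile and loess normalization, where its other probe set was read. The other 8 genes of the pathway lists past 2-fold (Cblb, Cd3d, Cd3g, Prkcq, Orai2, Rcan3, Stim1 and Sh2d2a) kept their direction and moved by less than the yardstick where they were measured. Stim1 and Rcan3 did not stay past 2-fold throughout. The log2 ratio of Stim1 was 0.97 without probe sets of shared sequence, and that of Rcan3 was 0.96 with the floor at the 60th percentile. Markers of other cells and the medians of the other pathway genes were not recomputed. Signals near the floor, as for Malt1, Vav3 and Txk, limit what can be read of those genes.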
